A study of Mus musculus with 6 samples.

Results

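Txnip and 4 genes tied to it, Arrdc4, Mlx, Mlxip and Txn1, were examined in 4T1, a tumour cell line of the mouse mammary gland. All 5 genes were present among the 11452 gene symbols of the deposited expression table. Txnip was chosen by its measured values, being lower in knockout than in wild-type cells within each library number and higher in the libraries numbered 4, so both of its patterns are given as descriptions with no test. The other 4 genes were taken for their known relation to Txnip, with earlier results of these data known, and were tested.

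The RNA came from 4T1 pools of 2 genotypes, wild type (WT) and a knockout (KO) of Myo1e, which encodes the actin-based motor myosin 1e, with 3 libraries per genotype and no treatment named in the labels. The table numbers the libraries 1, 2 and 4 in each genotype, and they are called KO 1, WT 1 and so on here; the sample titles count pools 1 to 3, and the sources used here give neither what number 4 stands for nor how the knockout was made. Myo1e transcript was still present in the knockout pools, at 6.83 ± 0.03 log2 CPM against 7.01 ± 0.09 in wild type (SD, n = 3). CPM are read counts scaled to a common library size, and 17772003 to 19988206 reads per library were recovered from the table.

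Txnip encodes thioredoxin-interacting protein, an alpha-arrestin that binds and inhibits thioredoxin and promotes the removal of glucose transporters from the cell surface. Its transcription is a standard readout of glucose sensing. The transcription factor MondoA, encoded by Mlxip, pairs with Mlx, moves to the nucleus when glucose 6-phosphate is abundant, and binds carbohydrate response elements, which are paired E-box-type sequences. Arrdc4, another alpha-arrestin gene, is a known target of the same factor pair. Txn1 encodes cytosolic thioredoxin, the reducing protein to which Txnip binds.

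The promoters of Txnip and Arrdc4 are shown because the response element is a sequence feature. These were the members higher in number 4 and lower in KO than in WT within each number. RefSeq held an upstream window for 5 of the 5 genes (build GRCm38.p6, a C57BL/6J reference and not 4T1 sequence). Each printed stretch covers the 250 bases before the RefSeq transcription start, 5′ to 3′ on the gene's strand, and capitals mark every CACGNG on either strand. Txnip lies at chr3:96557707-96557956 (plus strand) and Arrdc4 at chr7:68749239-68749488 (minus strand).
Txnip: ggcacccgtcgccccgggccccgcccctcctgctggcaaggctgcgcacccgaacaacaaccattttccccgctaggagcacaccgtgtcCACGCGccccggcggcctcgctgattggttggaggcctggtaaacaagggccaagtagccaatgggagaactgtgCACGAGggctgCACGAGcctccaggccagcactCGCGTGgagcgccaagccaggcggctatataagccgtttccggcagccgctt
Arrdc4: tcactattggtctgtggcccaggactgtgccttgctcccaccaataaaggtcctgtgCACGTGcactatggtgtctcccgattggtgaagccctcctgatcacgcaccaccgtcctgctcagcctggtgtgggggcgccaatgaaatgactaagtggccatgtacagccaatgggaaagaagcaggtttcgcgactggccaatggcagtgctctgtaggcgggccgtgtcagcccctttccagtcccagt

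The Txnip window held 4 CACGNG matches, of which the pair CACGAG at -85 to -80 and CACGAG at -74 to -69, counted from the transcription start, lay 5 bases apart in the same orientation. That is the spacing of a carbohydrate response element. Of 32851 RefSeq windows of this length, 15 (0.0457%) held such a pair on either strand, 7723 (23.5%) held at least 1 CACGNG and 1978 (6.02%) held CACGTG, which is itself a CACGNG. The Arrdc4 window held a single CACGTG at -193 to -188 and no pair, and the Mlx window a single CACGTG at -40 to -35. No match was found in these letters for Mlxip or Txn1. The 15 windows with a pair belonged to 14 genes, 8 of them tested here. The other 7 differed between the libraries numbered 4 and the rest by at most 0.89 on the log2 scale, the value of Fnip1, which encodes folliculin-interacting protein 1 and was named after its value was seen.

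**Figure D1:**
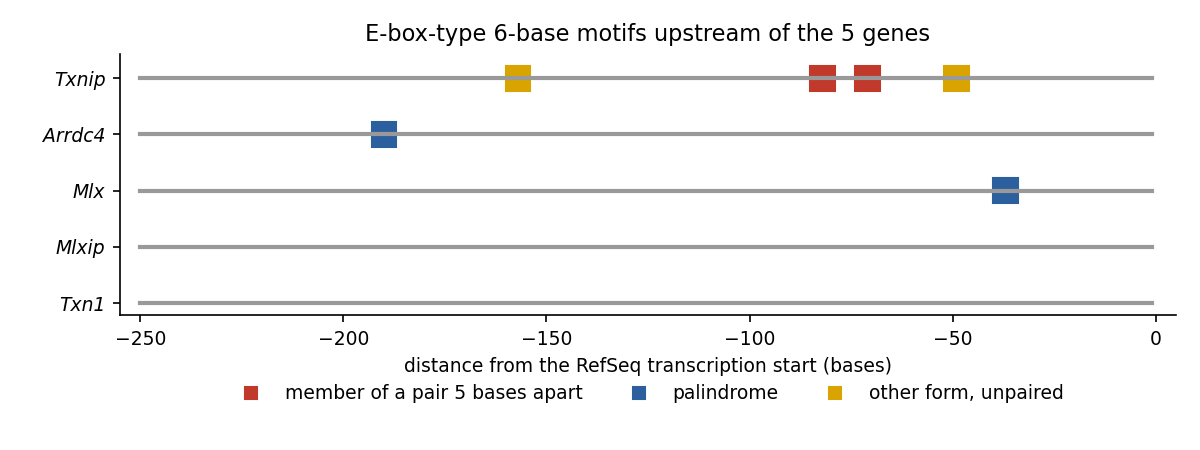
Positions of E-box-type 6-base motifs in the 250 bases upstream of each gene's RefSeq transcription start (x axis, bases from the start). Each row is 1 gene and each box 1 match; the 2 red boxes are the Txnip pair at -85 and -74, and blue boxes are the palindromic matches of Arrdc4 and Mlx.

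The libraries numbered 4 stood apart from the rest before any gene was considered. Over the 11269 genes tested, 83.8% of the variance lay on the leading principal component, where KO 4 scored 48.4, WT 4 scored 49.2 and numbers 1 and 2 scored -27.7 to -20.4. Mitochondrially encoded genes took 0.309% to 0.343% of the reads in number 4 and 0.379% to 0.493% in numbers 1 and 2. By genotype they took 0.343% to 0.493% in KO and 0.309% to 0.435% in WT, with KO above WT within each number. Of 12 epithelial markers 12 were in the table, with a summed level of 3997 to 4291 CPM in number 4 and 4697 to 5431 CPM in numbers 1 and 2 (3997 to 4720 CPM in KO, 4291 to 5431 CPM in WT). Abundant genes weigh most in such a sum. Gene by gene, limma called 7 of the 12 higher in number 4 and 4 lower (31.8% and 33.8% of all genes). Their median was 0.29 on the log2 scale, with Esrp1 higher by 1.34 and Krt8 lower by -1.27. Of 10 fibroblast markers only Pdgfra and Postn were in the table, summing to 51.5 to 71.0 CPM in number 4 and 29.9 to 76.8 CPM in the rest (29.9 to 71.0 CPM in KO, 51.5 to 76.8 CPM in WT). Of 10 leukocyte markers Cd68 and Cd14 were in the table, at 10.9 to 11.2 CPM in number 4 and 12.9 to 16.8 CPM in the rest (10.9 to 15.7 CPM in KO, 11.2 to 16.8 CPM in WT); of 8 endothelial markers there were 0. The part of these differences in the results below was not tested.

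Txnip, at GRCm38 chromosome 3, 96557957 to 96561883 on the plus strand, had levels of 4.73, 3.86 and 7.14 log2 CPM in the knockout libraries numbered 1, 2 and 4. The wild-type libraries of those numbers stood at 5.46, 5.003 and 8.14. These levels rest on 514, 250 and 2935 reads in KO and 852, 595 and 5283 reads in WT. Each KO library was thus below the WT library of its own number, while KO 4 was above WT 1 and WT 2, so the genotypes overlap when the numbers are ignored. The mean level was 5.24 ± 1.70 for the knockout and 6.203 ± 1.69 for wild type (SD, n = 3). GENCODE M21 annotates an antisense gene, Gm15441, across the locus, which was not analysed here, and the sources used here do not say whether counting used strand.

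Within numbers, the KO level of Txnip was 0.601, 0.451 and 0.499 times the WT level in numbers 1, 2 and 4, from the recovered reads. The exact 95% counting intervals were 0.537 to 0.671, 0.388 to 0.524 and 0.477 to 0.522. On the log2 CPM scale the mean of the 3 differences was -0.96, the 6th lowest of 11269 genes. In number 4 against numbers 1 and 2, Txnip was 2.84 higher within KO and 2.91 higher within WT, a 7.18-fold and a 7.503-fold higher level, and the mean of 2.88 was the 35th highest of all genes. Numbers 1 and 2 also differed, KO 1 being 0.87 above KO 2 and WT 1 0.46 above WT 2. Counting intervals cover counting error only, since sequencing reads without molecular identifiers are not independent molecules. In a cell pool, fewer cells that express a gene and less RNA per cell cannot be told apart.

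Arrdc4 (chromosome 7, 68736995 to 68749241, minus strand) followed Txnip in the libraries numbered 4 and lay on the same side in each genotype comparison. The knockout libraries numbered 1, 2 and 4 held 1.08, 1.17 and 3.46 log2 CPM of it, and their wild-type counterparts 1.92, 1.56 and 4.25. It was weakly expressed, with 40, 38 and 228 reads in KO and 72, 54 and 355 reads in WT. Both libraries numbered 4 were above the other 4 libraries, which was so for 35.8% of genes tested, and KO 1 and KO 2 were both below WT 1 and WT 2, which was so for 18.2%.

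The level of Arrdc4 was higher in number 4 by 2.42 on the log2 scale (SE 0.16), a 5.36-fold difference with a 95% interval of 4.15 to 6.91 (limma, adjusted p = 2.51e-06). It was higher by 2.33 within KO and 2.51 within WT, and the mean was the 67th highest of 11269 genes. The same test called 31.8% of all genes higher and 33.8% lower in number 4, so passing it is common in these libraries. With numbers 1 and 2 as the reference, Arrdc4 and Txnip therefore stood 5.36-fold and 7.34-fold higher. The test counts KO 4 and WT 4 as separate libraries, although the numbers were taken as pairs. If the pair is the unit, number 4 is a single unit. Intervals and p-values of number 4, for all genes here, may then overstate the certainty.

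**Figure D2:**
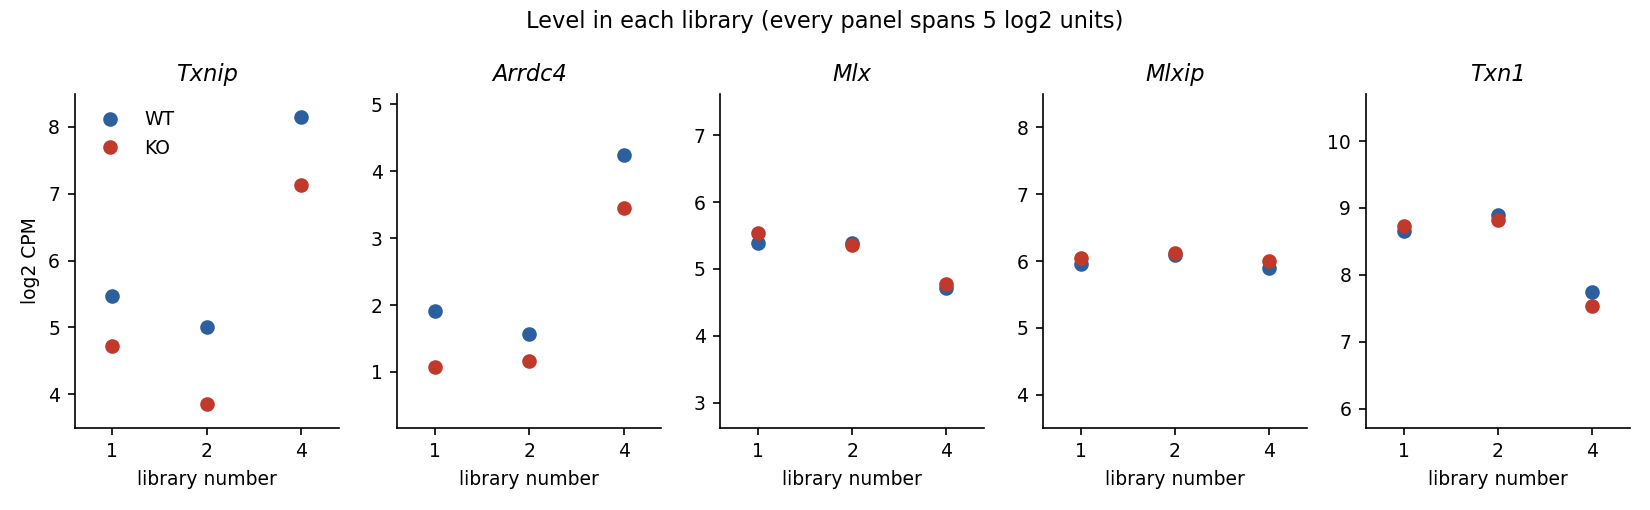
Level of each of the 5 genes in every library (y axis, log2 CPM; x axis, library number; red KO, blue WT; each point is 1 library and every panel spans 5 log2 units). Txnip and Arrdc4 were highest in number 4, Mlx and Txn1 were lowest there, and Mlxip stayed between 5.89 and 6.12.

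Between genotypes, Arrdc4 averaged 1.90 ± 1.35 log2 CPM in the knockout and 2.58 ± 1.46 in wild type (SD, n = 3). Within numbers 1, 2 and 4 it differed by -0.84, -0.40 and -0.79, below WT in 3 of 3 numbers, a pattern found in 17.0% of genes tested. The mean difference of -0.67 was the 38th lowest of 11269 genes. From the reads, KO was at 0.553, 0.756 and 0.577 times WT, with counting intervals of 0.366 to 0.825, 0.486 to 1.17 and 0.486 to 0.683, so in number 2 the difference was not detectable at this depth.

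The genotype difference of Arrdc4 did not pass limma's test, with an SE of 0.94 (adjusted p = 0.9999). The test called 0% of genes, and 23 genes had an unadjusted p under 0.05 (limma voom on the recovered reads, 0 called and 24). With the replicate block, which compares KO and WT within a number, the SE of Arrdc4 was 0.16, its 95% interval -1.02 to -0.33 and its adjusted p 0.257, where 0.00887% of genes passed. That is 1 gene, Txnip, which was chosen by these differences, so nothing is read from its call. Under limma with the replicate block, 1117 genes had an unadjusted p under 0.05 (limma voom, 1114). Over all alternatives of this comparison the adjusted p of Arrdc4 ranged from 0.178 to 1. Without the libraries numbered 4 the difference was -0.62 (limma, adjusted p = 0.733), beside -0.94 for Txnip. Without WT 4 it was 0.16 and Txnip's was 0.0087, and without KO 4 they were -1.45 and -1.91, since number 4 then stands in 1 genotype only. Leaving out KO 1 or KO 2 gave -0.26 or -0.31 for Arrdc4, and leaving out KO 2 gave -0.27 for Txnip. Without WT 2 they were -1.18 and -1.56.

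**Figure D3:**
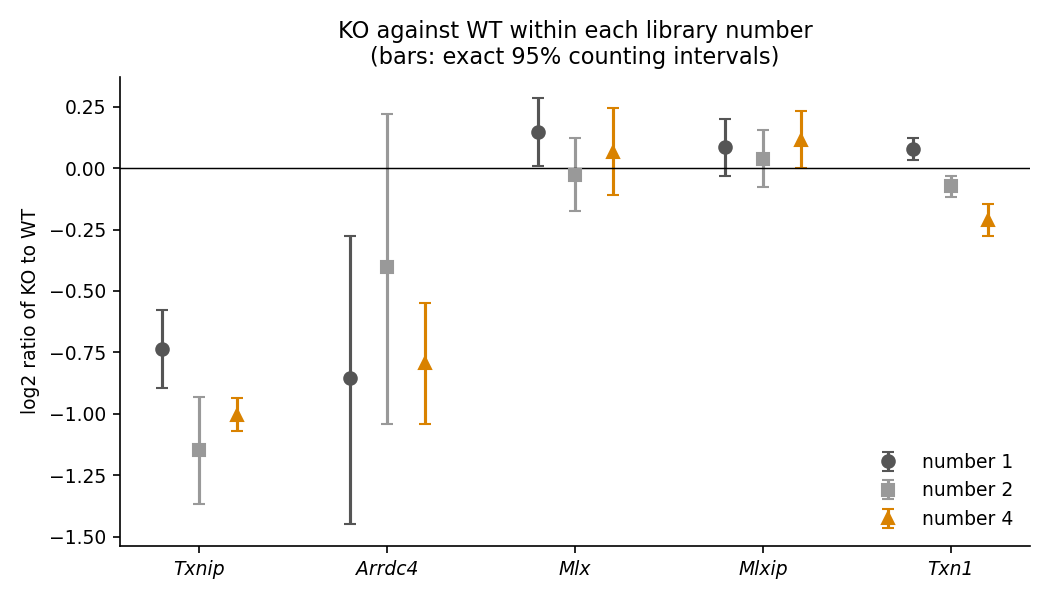
Log2 ratio of KO to WT within each library number (y axis), from the recovered reads, for the 5 genes (circle, square and triangle for numbers 1, 2 and 4; bars, exact 95% counting intervals). Txnip and Arrdc4 lie below 0 in each number, and the Arrdc4 interval in number 2 reaches above 0.

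Whether the genotype difference itself differed between number 4 and numbers 1 and 2 was tested as an interaction. For Arrdc4 the difference of differences was -0.17 (SE 0.34), with a 95% interval of -0.97 to 0.62 (limma, adjusted p = 0.997). The values for Mlx, Mlxip and Txn1 were 0.0070, 0.05 and -0.21, and none of the 4 passed. The interaction called 0% of genes tested, with 440 at an unadjusted p under 0.05 (limma voom, 0 called and 468). Without WT 1 or WT 2 it called 145 or 269 genes, and still none of the 4 members.

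The ratio of Txnip to Arrdc4, each as CPM per kilobase of annotated exon, shows how far the pair kept in step. In the knockout libraries numbered 1, 2 and 4 the ratio was 16.62, 8.51 and 16.65, and their wild-type counterparts gave 15.3, 14.25 and 19.25. The ratio was lowest in KO 2, the library with the lowest Txnip, which is the numerator. Arrdc4 there rests on 38 reads, and no interval was computed for the ratio.

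Mlxip (chromosome 5, 123394798 to 123457932, plus strand), the MondoA gene, varied little between libraries. The knockout libraries numbered 1, 2 and 4 held 6.05, 6.12 and 6.005 log2 CPM, and their wild-type counterparts 5.96, 6.09 and 5.89. The KO libraries were above WT by 0.08, 0.04 and 0.11 within numbers, as 15.6% of genes were in all 3 numbers, and all 3 counting intervals of the ratio reached below 1. The KO minus WT difference of 0.08 did not pass limma's test (95% interval -0.16 to 0.32, adjusted p = 0.9999), nor did the difference of number 4, -0.11 with a 95% interval of -0.25 to 0.03 (limma, adjusted p = 0.159). The location of the MondoA protein, through which it is regulated, was not measured. GENCODE M21 annotates 4 genes overlapping Mlxip, Gm15747 on the opposite strand and Gm42907, Gm42908 and Gm43813 on the same strand. Their effect on the Mlxip counts was not tested.

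Mlx (chromosome 11, 101087277 to 101092207, plus strand), the dimer partner of MondoA, was lower in the libraries numbered 4. Its levels were 5.54, 5.36 and 4.78 log2 CPM in the knockout libraries numbered 1, 2 and 4, against 5.39, 5.38 and 4.71 in their wild-type counterparts. Both libraries numbered 4 were below the other 4, as for 37.0% of genes. The difference of number 4 was -0.67 (SE 0.07), a level 0.627 times that of numbers 1 and 2 (95% interval 0.559 to 0.703; limma, adjusted p = 4.28e-05). Between genotypes Mlx differed by 0.15, -0.03 and 0.07 within numbers, 0.06 on average (95% interval -0.61 to 0.73; with the replicate block -0.09 to 0.21; limma, adjusted p = 0.9999 and 0.789). Mlx overlaps Psmc3ip on the opposite strand, which was lower in number 4 by -0.86, and reads of the 2 genes could be shared if counting ignored strand.

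Txn1 (chromosome 4, 57943373 to 57956411, minus strand) fell in number 4 while Txnip stood higher there. Knockout numbers 1, 2 and 4 gave 8.73, 8.82 and 7.53 log2 CPM of it, and wild type gave 8.65, 8.90 and 7.74, again with both libraries numbered 4 below the rest. The difference was -1.14 (SE 0.08), a level 0.453 times that of numbers 1 and 2 (95% interval 0.400 to 0.513; limma, adjusted p = 3.08e-06). Between genotypes Txn1 differed by 0.08, -0.07 and -0.21 within numbers 1, 2 and 4, with no common direction. The mean of -0.07 did not pass (95% interval -1.17 to 1.03, and -0.20 to 0.06 with the replicate block; limma, adjusted p = 0.9999 and 0.726).

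Per kilobase of exon, the order of the 5 genes shifted with number 4. Txn1 was the highest in every library, at 175.4 to 454 CPM per kb, and Arrdc4 the lowest, at 0.510 to 4.69 CPM per kb. In numbers 1 and 2, Mlx was next to Txn1 at 20.5 to 23.2 CPM per kb, while Txnip (4.63 to 14.1) and Mlxip (7.48 to 8.37) overlapped. In KO 4 and WT 4, Txnip was at 45.1 and 90.4 CPM per kb, above Mlx at 13.7 and 13.1. The exon lengths are GENCODE unions and the isoforms used in these cells were not measured.

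**Figure D4:**
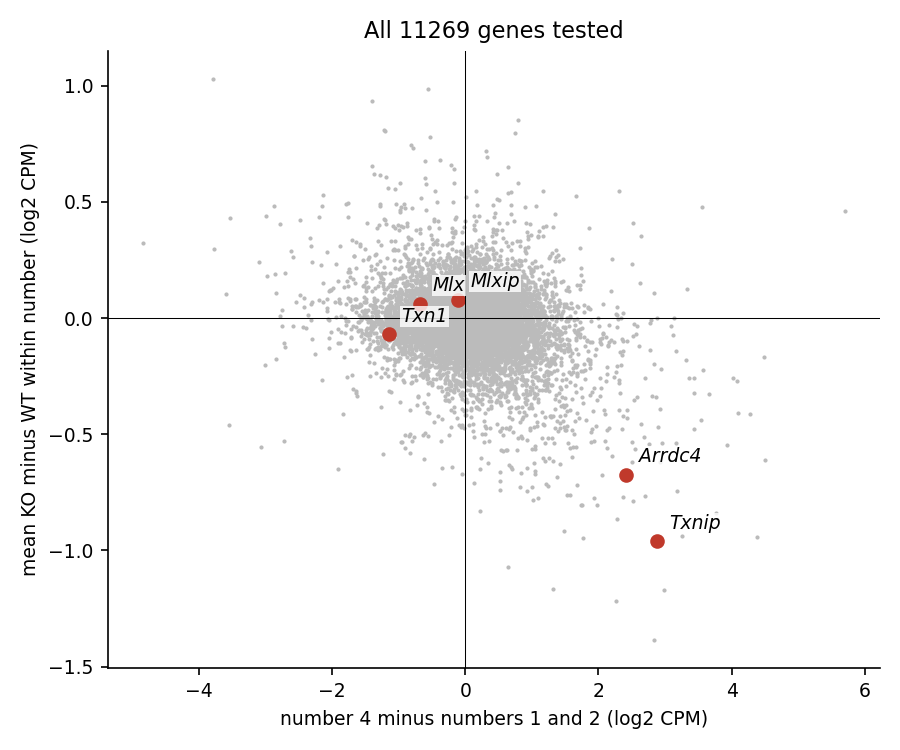
Every gene tested, by its difference between number 4 and numbers 1 and 2 (x axis, log2 CPM) and its mean KO minus WT difference within numbers (y axis, log2 CPM); grey points are the 11269 genes and red points the 5 named ones. Txnip (2.88, -0.96) and Arrdc4 (2.42, -0.67) lie at the lower right, and Mlx, Mlxip and Txn1 within 0.1 of 0 on the y axis.

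Genes around the pathway were read from lists of known function, by counts beside those of all genes, of which 31.8% were higher and 33.8% lower in number 4. Of 5 alpha-arrestins tested, 4 were higher in number 4 and 0 lower, and the 4 include Txnip, which was chosen for being higher there, and Arrdc4. Arrdc2 and Arrdc3 were named after their values were seen, to complete the family. Arrdc1 was higher in number 4 by 0.35 and Arrdc2 by 0.34 (limma, adjusted p = 0.00119 and 0.0385), and Arrdc3, at 0.14, did not pass (adjusted p = 0.589). Between genotypes, the within-number differences were -0.08, -0.06 and -0.10 for Arrdc1 and 0.05, 0.13 and -0.05 for Arrdc2. Arrdc3, a regulator of receptor trafficking, differed by 0.48, 0.21 and -0.75, with opposite signs in number 4 and the rest. Of 12 known carbohydrate response targets tested, Arrdc4 included, 4 were higher in number 4 and 6 lower (31.8% and 33.8% of all genes), with a median of -0.19 beside 0.0031 over all genes. Acacb, which encodes an acetyl-CoA carboxylase, was higher by 1.66. Rgs16, a regulator of G protein signalling, was lower by -3.53, and the fatty acid synthesis genes Fasn, Elovl6 and Scd1, named after their values were seen, by -1.21, -1.32 and -1.14. Klf10, a zinc finger factor also named after its values were seen, was lower by -0.26. The list thus held genes on both sides. Between genotypes 0 of the 12 passed, 2 were below WT in 3 of 3 numbers and 2 above (17.0% and 15.6% of all genes), and Rgs16 differed by 0.38, 1.04 and -0.12.

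Of 12 listed MondoA and ChREBP factors and their Max network partners, 10 were tested. Mlxipl, the ChREBP gene itself, was not in the table. Of the 10, Mlx and Mlxip included, 6 were higher in number 4 and 2 lower (31.8% and 33.8% of all genes), with a median of 0.40. Mxd4, a Max-binding repressor, was higher by 2.16 and the proto-oncogene Myc by 1.08, while Mxd3 was lower by -1.63 (limma, adjusted p = 3.44e-06, 5.32e-07 and 9.32e-06). Between genotypes 0 passed and the median was 0.04; Mga differed by 0.12, 0.32 and 0.11 within numbers, and Mxd1 by 0.36, 0.54 and -0.44.

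In the thioredoxin system, Txn1 included, 16 of 25 genes were lower in number 4 and 3 higher (33.8% and 31.8% of all genes), 6 did not pass, and the median was -0.35. The peroxiredoxin gene Prdx1 was lower by -1.25, and Glrx5, which encodes a mitochondrial glutaredoxin, by -0.78 (limma, adjusted p = 5.16e-07 and 2.71e-06). The 3 higher genes were 1 without KO 1, KO 4 or WT 4. The genotype comparison called 0 of the 25, 8 were below WT in 3 of 3 numbers and 2 above (17.0% and 15.6% of all genes), and the median was -0.08 beside -0.0071 over all genes. Glrx, a cytosolic glutaredoxin gene, differed by -0.06, -0.30 and -0.58, and Txnrd2, for mitochondrial thioredoxin reductase, by 0.30, 0.17 and 0.11.

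Genes of glucose uptake and glucose 6-phosphate handling bear on the signal that MondoA senses. Of 12 tested, 3 were higher in number 4 and 5 lower, with a median of -0.12, and these shares lie near the 31.8% and 33.8% of all genes. The 5 lower genes were 3 without KO 1, KO 2 or WT 4, and 2 without KO 4. Slc2a8, an intracellular glucose transporter gene, was higher by 0.97, and G6pdx, the first enzyme of the pentose phosphate pathway, lower by -0.67. The transporter gene Slc2a6 was too weakly expressed to place (0.83, SE 0.49; limma, adjusted p = 0.162). By genotype 0 of the 12 passed, 6 were below WT in 3 of 3 numbers and 0 above (17.0% and 15.6% of all genes), with a median of -0.04. Pgm1, a phosphoglucomutase gene, differed by -0.45, -0.21 and -0.15, and Slc2a6 by -1.74, -0.43 and -0.02.

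Regulators of the Txnip protein, among them ubiquitin ligases such as Itch and subunits of AMP-activated kinase, had a median of -0.09 in number 4, with 3 of 15 higher and 6 lower (31.8% and 33.8% of all genes). Without KO 1, WT 2 or WT 4 the count of higher genes was 1. The kinase gene Akt1 was lower by -0.94 and the importin gene Kpna2 by -0.89, and the ligase gene Nedd4l was higher by 0.56. By genotype 0 of the 15 passed, with a median of -0.0045; Prkab2 differed by 0.35, 0.43 and -0.21, and Prkag2 by 0.05, -0.20 and -0.19.

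**Figure D5:**
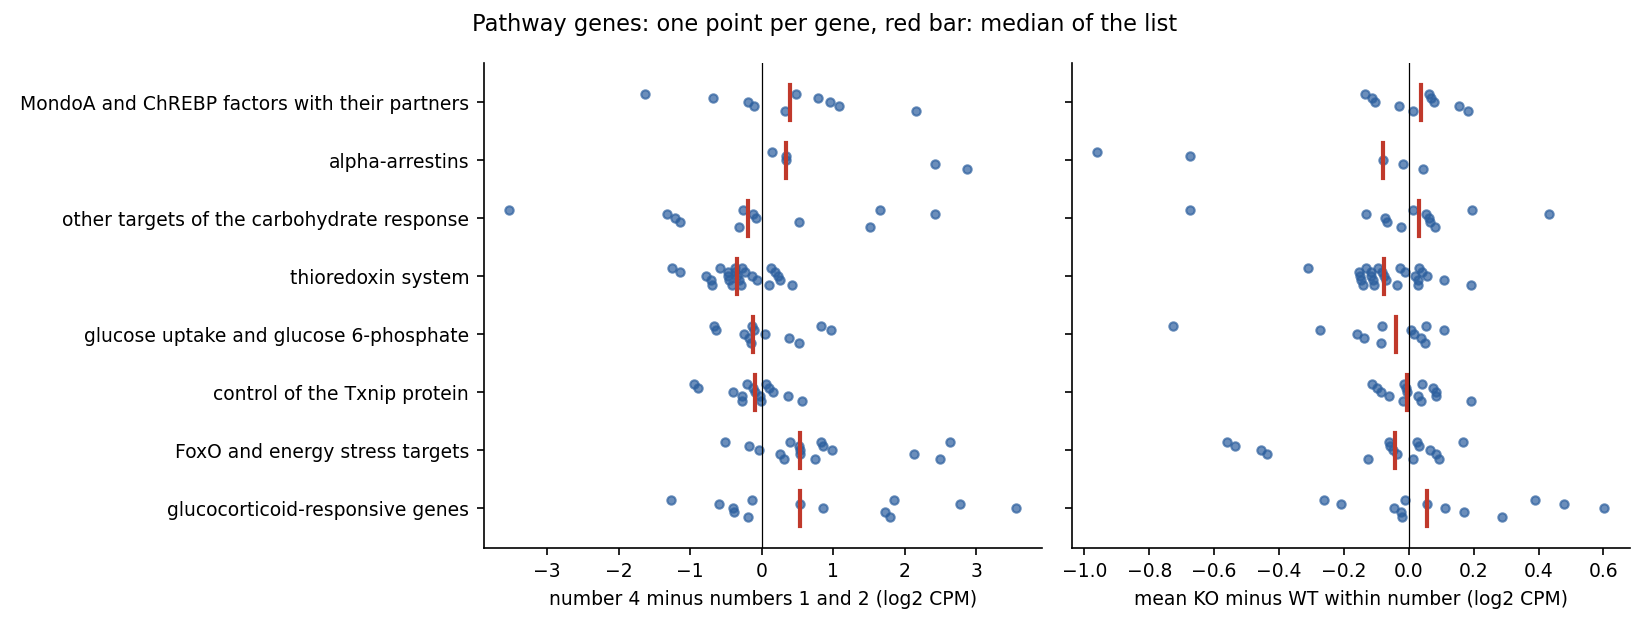
Differences of the genes in 8 lists, between number 4 and numbers 1 and 2 (left) and as the mean KO minus WT within numbers (right); both x axes are in log2 CPM, each point is 1 gene and red bars are list medians. The list medians lie between -0.35 and 0.54 on the left and between -0.08 and 0.06 on the right. Single genes on the right spread more widely than the medians. Txnip, chosen by such values, stands at -0.96, Arrdc4 at -0.67, Slc2a6 at -0.73 and Hsd11b1 at 0.60.

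The genes most like Txnip were named by rule among 9981 other genes with a mean of at least 2 log2 CPM, as a description. By Pearson correlation over the 6 libraries the closest were Rab25, Ube2f, Tmem135, Tbc1d20, Cbr2, Arhgdib, Tent2, Tnfrsf1b, Bspry and Phldb3, with r of 0.992 to 0.997. These correlations rest largely on the libraries numbered 4, and the genes differed there by 0.25 to 1.597. Arrdc4 was 62nd, with r = 0.980. By the distance between the 3 within-number KO minus WT differences, the closest were Csn3, Gbp7, Cbr2, Bst1, Car9, Bnip3, Arrdc4, Acox2, Gm11110 and H2-Q7, at distances of 0.58 to 0.87 log2 units. Arrdc4 was the 7th closest, at 0.79. Of these 10 genes 8 were higher in number 4 (31.8% of all genes) and 1, the mitophagy receptor gene Bnip3, was lower, by -0.62 (33.8% of all genes).

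Csn3, the gene of the milk protein kappa-casein, was the closest to Txnip in the genotype differences. Knockout numbers 1, 2 and 4 gave 1.28, 0.88 and 3.57 log2 CPM of it, and wild type gave 1.48, 2.21 and 4.40. It was below WT by -0.21, -1.33 and -0.83 within numbers. Car9, the carbonic anhydrase gene induced by hypoxia, differed by -0.59, -0.63 and -0.43 and was higher in number 4 by 1.05.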

How the data were processed

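RNA was measured in 6 libraries, 3 KO and 3 WT, and no column of the table was left unmatched. The authors deposited log2 CPM values with a prior, per the file headers and values. The submitters' processing notes list Trimmomatic 0.39, STAR 2.7.3a, featureCounts (Subread 1.6.4), edgeR and GRCm38. The settings are unknown here, and the labels' protocols name a stranded mRNA kit. All values were whole multiples of 1 read within a tolerance of 0.01, so reads were recovered. A count of 0 reads allows 0.144 to 0.173 CPM, taking 3 reads as the limit, for counting error only.

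Differences were tested with limma 3.58.1 (R 4.3.3) on the deposited log2 CPM, two-sided, with a variance trend, over the 11269 genes at log2 CPM 0 or more in at least 3 libraries (183 dropped), with Benjamini-Hochberg adjustment over all of them and a threshold of 0.05. Genotype alone was fitted for KO against WT, and number 4 beside genotype or as an interaction. A 3 against 3 exact permutation test cannot go below p = 0.1. The code was tested on simulated data. Fold changes on this scale understate those of weakly expressed genes. The labels do not say whether the pools were independently derived, so p-values measure the spread between these libraries, which may be technical.

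Deviations from the genotype mean correlated between same-numbered KO and WT libraries at 0.744, 0.784 and 0.921 across genes. Correlations between differently numbered libraries were not computed, and number 4 dominates the variance. These values therefore cannot show that KO 1 belongs with WT 1 rather than WT 2. The header numbers were taken to pair the libraries, which no label states. The columns numbered 4 match a genotype but no pool title.

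Members, gene lists and rules were chosen with earlier results of these data known. Named genes were the 5 members, up to 3 genes per list with the largest number 4 difference, up to 2 with the largest mean KO minus WT difference, the 10 genes most like Txnip by each measure, and Myo1e; Arrdc2, Arrdc3, Fnip1 and those so marked in the text were named after their values were seen. Alternatives were other filters, pseudocounts, median centring, an untrended variance, limma voom, a replicate block, a term for number 4, numbers 1 and 2 only, and leaving out each library. Gene models came from GENCODE M21, and sequences from RefSeq.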

Additional observations from a re-analysis of the deposited data

How the results depend on the processing

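Filters, pseudocounts, median centring, the untrended variance and limma voom kept the direction of all 5 genes and the call of the 4 tested. KO against WT, 0 genes were called under these settings, with a term for number 4 and with numbers 1 and 2 only, and 1 gene, Txnip, with the replicate block on the log2 values. The replicate block with limma voom, chosen after seeing the data, also called 1 gene. The replicate block changed no call of Arrdc4, Mlx, Mlxip or Txn1. With numbers 1 and 2 only, Txn1 differed by 0.00090.

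Leaving out each library in turn, the KO minus WT difference ranged from -1.91 to 0.0087 for Txnip, -1.45 to 0.16 for Arrdc4, 0.035 to 0.13 for Mlxip, -0.16 to 0.29 for Mlx (-0.095, -0.0050 and -0.16 without KO 1, KO 2 and WT 4) and -0.42 to 0.35 for Txn1 (0.35, 0.04 and 0.16 without KO 4, WT 1 and WT 2). These fits hold number 4 in unequal shares of the genotypes. For number 4 the ranges were 2.69 to 3.07 for Txnip, 2.33 to 2.51 for Arrdc4, -0.71 to -0.64 for Mlx, -0.13 to -0.08 for Mlxip and -1.25 to -1.04 for Txn1, with 5592 to 7495 genes called. The interaction ranged from -0.35 to 0.0029 for Arrdc4, -0.083 (without KO 2) to 0.097 for Mlx -0.0086 to 0.12 for Mlxip and -0.33 (without WT 2) to -0.09 (without WT 1) for Txn1, with 0 to 269 genes called (145 and 269 without WT 1 and WT 2); the cause was not tested. It could not be fitted without KO 4 or WT 4, and where 1 library stood alone it was assumed to vary like the others. Of the 10 genes most like Txnip by Pearson's r, 8 had a Spearman's rho of 1, as had 129 genes in all. Depth limits Arrdc4 most, at 38 to 72 reads in numbers 1 and 2.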

Other observations

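A list of FoxO factors with FoxO and energy stress targets was also read in the libraries numbered 4. Of its 16 tested genes 13 were higher there and 1 lower, beside 31.8% and 33.8% of all genes, with a median of 0.54. The 13 include the factor genes Foxo1, Foxo3 and Foxo4, named after their values were seen. Without KO 4 the count of higher genes was 8, and without WT 2 that of lower genes was 2. Sesn2, which encodes the stress-induced sestrin 2, was higher by 2.63, Ddit4, an inhibitor of mTORC1 signalling, by 2.500, and Pik3ip1, an inhibitor of phosphatidylinositol 3-kinase, by 2.13 (limma, adjusted p = 2.58e-05, 8.22e-06 and 2.98e-05). Between genotypes 0 of 16 passed. The differences within numbers 1, 2 and 4 were -0.41, -1.17 and -0.03 for Ddit4, 0.06, -1.38 and -0.05 for Sesn2 and -1.01, -0.50 and -0.17 for Pik3ip1. Ccng2, an atypical cyclin gene chosen after its values were seen, differed by -0.50, -0.46 and -0.35.

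Of 13 tested glucocorticoid-responsive genes 7 were higher in number 4 and 3 lower, beside 31.8% and 33.8% of all genes, with a median of 0.54. The metallothionein genes Mt2 and Mt1 were higher by 3.56 and 1.85, and Lcn2, which encodes the siderophore-binding lipocalin 2, by 2.77 (limma, adjusted p = 6.33e-05, 7.65e-05 and 0.00353). The 3 lower genes, named after their values were seen, were Sgk1, Fkbp5 and Errfi1, at -1.26, -0.39 and -0.39. Between genotypes 0 of 13 passed, and Mt2 differed by 0.34, 1.36 and -0.26 within numbers. Hsd11b1, the gene of an enzyme that activates glucocorticoids, differed by 0.58, 1.06 and 0.16. It was above WT in 3 of 3 numbers, as were 15.6% of all genes.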
